A study of Mus musculus with 6 samples.

Results

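The lysosomal cathepsins of cultured cardiac fibroblasts (CFs) were examined in WT and CharmeKO cells. They were the 9 rows of the expression table with the symbols *Ctsa*, *Ctsb*, *Ctsc*, *Ctsd*, *Ctsf*, *Ctsh*, *Ctsk*, *Ctsl* and *Ctsz*, out of 19446 genes in the table. All 9 were among the 15948 genes tested, those that reached 10 reads in 2 or more libraries. CFs were grown out of fragments of atrial tissue, pooled from littermates, on fibronectin in a medium rich in serum. The mice were labelled as 5 weeks of age, while the study's methods for these cultures give a range of ages around it. No depletion of blood-derived cells is described for the cultured cells. The WT group held 3 libraries, numbered 1 to 3, and so did the CharmeKO group, in which a polyadenylation signal inserted into the *Charme* locus stops the long non-coding RNA *Charme*. Both genotypes were on the C57BL/6J background. *Charme* is a transcript of cardiac and skeletal muscle, and the knockout was carried by the whole animal, so that the cultured fibroblasts came from hearts in which other cells had lost it too. The comparison asked how the transcriptome of CFs differs when the heart lacks *Charme*.

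Cathepsins are proteases that work in the acidic lumen of lysosomes. Most of those considered here are cysteine proteases, *Ctsd* encodes an aspartic protease and *Ctsa* a serine carboxypeptidase. They are made as inactive precursors, tagged with mannose 6-phosphate in the Golgi, carried to lysosomes by the mannose 6-phosphate receptors and activated there by cleavage. Fibroblasts use them to degrade matrix proteins that they have taken up, and some are also secreted. Macrophages are rich in lysosomes and express several cathepsins strongly.

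The libraries held 38330019 to 46797446 reads assigned to genes. The values given below are normalised reads, that is, reads per gene divided by the size factor of the library, and 1 read was worth 0.87 to 1.1 of them. The feature taken as *Charme*, which carried no Ensembl ID, had 5, 15 and 11 reads in WT 1, 2 and 3. In CharmeKO 1, 2 and 3 it had 0, 6 and 3, so its level was near the limit of detection in both groups. The 0 reads of CharmeKO 1 allow a level of up to 0.0671 CPM (reads scaled to a fixed library total). All 14 fibroblast markers had reads in every library, and their summed value was 1551660 to 2966150 in WT and 1880640 to 2227270 in CharmeKO. Single markers such as *Thy1*, given below, differed more between libraries than this sum. Libraries with the same number resembled each other across genotypes and were treated as pairs, although CharmeKO 3 resembled WT 2 as closely as WT 3 (correlation of deviations 0.222 and 0.217) and the labels do not say what they share.

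The cathepsins together took 0.431%, 0.383% and 0.319% of all reads in WT 1, 2 and 3 and 0.521%, 0.5997% and 0.346% in CharmeKO 1, 2 and 3. CharmeKO 1 and 2 thus lay above every WT library, while CharmeKO 3 lay within the WT range. On average the share was 0.378% ± 0.056 (SD, n = 3) in WT and 0.489% ± 0.13 (SD, n = 3) in CharmeKO, a difference of 0.111 percentage points, smaller than the spread between the CharmeKO libraries. *Ctsb*, *Ctsl* and *Ctsd* supplied 71.2% to 86.4% of the cathepsin reads, depending on the library.

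To compare genes with each other, reads were divided by the exon length of the gene and by the library total (RPKM). On this scale the means of the cathepsins fell into an abundant and a scarce set. *Ctsb* stood at 288 ± 87.2 RPKM, *Ctsd* at 273 ± 86.5, *Ctsz* at 216 ± 73.9, *Ctsl* at 137 ± 25.6, *Ctsa* at 109 ± 44.8 and *Ctsk* at 72.3 ± 37.5 (mean ± SD over all 6 libraries). The other 3 were far lower, with *Ctsh* at 10.5 ± 6.63 RPKM, *Ctsc* at 7.44 ± 9.23 and *Ctsf* at 6.56 ± 2.66. The split did not hold in every library. In CharmeKO 3 *Ctsk* was at 7.76 RPKM, beside *Ctsf* at 6.03, and in WT 3 *Ctsc* reached 26.1. The order of neighbours held in all 6 libraries for *Ctsd* above *Ctsz*, *Ctsa* above *Ctsk* and *Ctsk* above *Ctsh*. *Ctsb* was above *Ctsd* in 3 libraries and *Ctsc* above *Ctsf* in 3, so neither of these neighbours could be ranked. *Ctsz* was above *Ctsl*, *Ctsl* above *Ctsa* and *Ctsh* above *Ctsc* in 5 libraries. With the length of the longest transcript in place of all exons, *Ctsc* and *Ctsf* exchanged places at 13.4 and 15.8 RPKM. Levels also depend on which transcripts the cells use, which was not tested. *Ctsl* was divided by 6489 bases of exons and *Ctsz* by 1441, and the longest transcripts have 6168 and 1441. In normalised reads *Ctsl* was higher (mean 36858 against 12970), so *Ctsz* above *Ctsl* rests on these lengths.

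**Figure D1:**
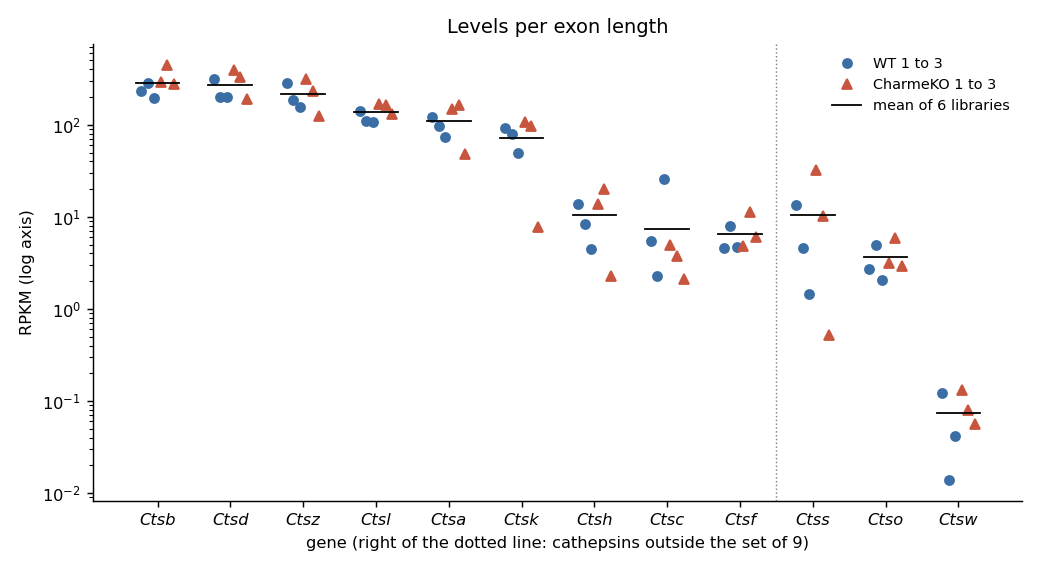
Level of each cathepsin in RPKM on a log axis, with 1 point per library (circles, WT; triangles, CharmeKO) and a line at the mean of the 6 libraries; the 3 genes right of the dotted line are cathepsins outside the set of 9. *Ctsb* to *Ctsk* had means between 72.3 and 288 RPKM and *Ctsh*, *Ctsc* and *Ctsf* between 6.56 and 10.5; the low triangle of *Ctsk* is CharmeKO 3.

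The genotypes were then compared gene by gene. With limma, none of the 9 cathepsins passed an adjusted p of 0.05 (0 of 9), and neither did any other gene (0%). At an unadjusted limma p under 0.05 there were 0 cathepsins, against 0.897% of all genes tested. DESeq2 on the reads called 8 genes (0.0502%), none of them a cathepsin, and edgeR called 0 (158 genes were at an unadjusted p under 0.05). A log2 fold change of at least 1 either way was reached by 1 cathepsin, *Ctsc*, and by 5.04% of all genes. For every cathepsin the limma adjusted p was 0.9999. Their median log2 fold change was 0.11, beside 0.0022 over all genes tested, with 7 cathepsins above 0 and 2 below. Leaving out CharmeKO 1 gave a median of -0.17, leaving out CharmeKO 2 gave -0.031 and leaving out WT 3 gave -0.068, whereas it was 0.30 without WT 1 and 0.48 when CharmeKO 3 was left out, so that its sign and size depended on single libraries. With all libraries it was 0.33 in edgeR and 0.32 in DESeq2. The groups overlapped for all 9 genes, whereas 4.11% of all genes did not overlap.

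Within pairs, 3 of the 9 cathepsins (*Ctsb*, *Ctsf* and *Ctsl*) were higher in CharmeKO in all 3 pairs and 0 were lower in all 3. These 3 are 33.3% of the cathepsins, and of all genes tested 16.4% were higher and 14% lower in all 3 pairs. In pairs 1 and 2 alone, 7 of the 9 were higher in CharmeKO, beside 33% of all genes. In pair 3, *Ctsa*, *Ctsc*, *Ctsd*, *Ctsh*, *Ctsk* and *Ctsz* were lower in CharmeKO. CharmeKO 3 was the library with the lowest value for 6 of the 9 genes, and for 17.8% of all genes tested.

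**Figure D2:**
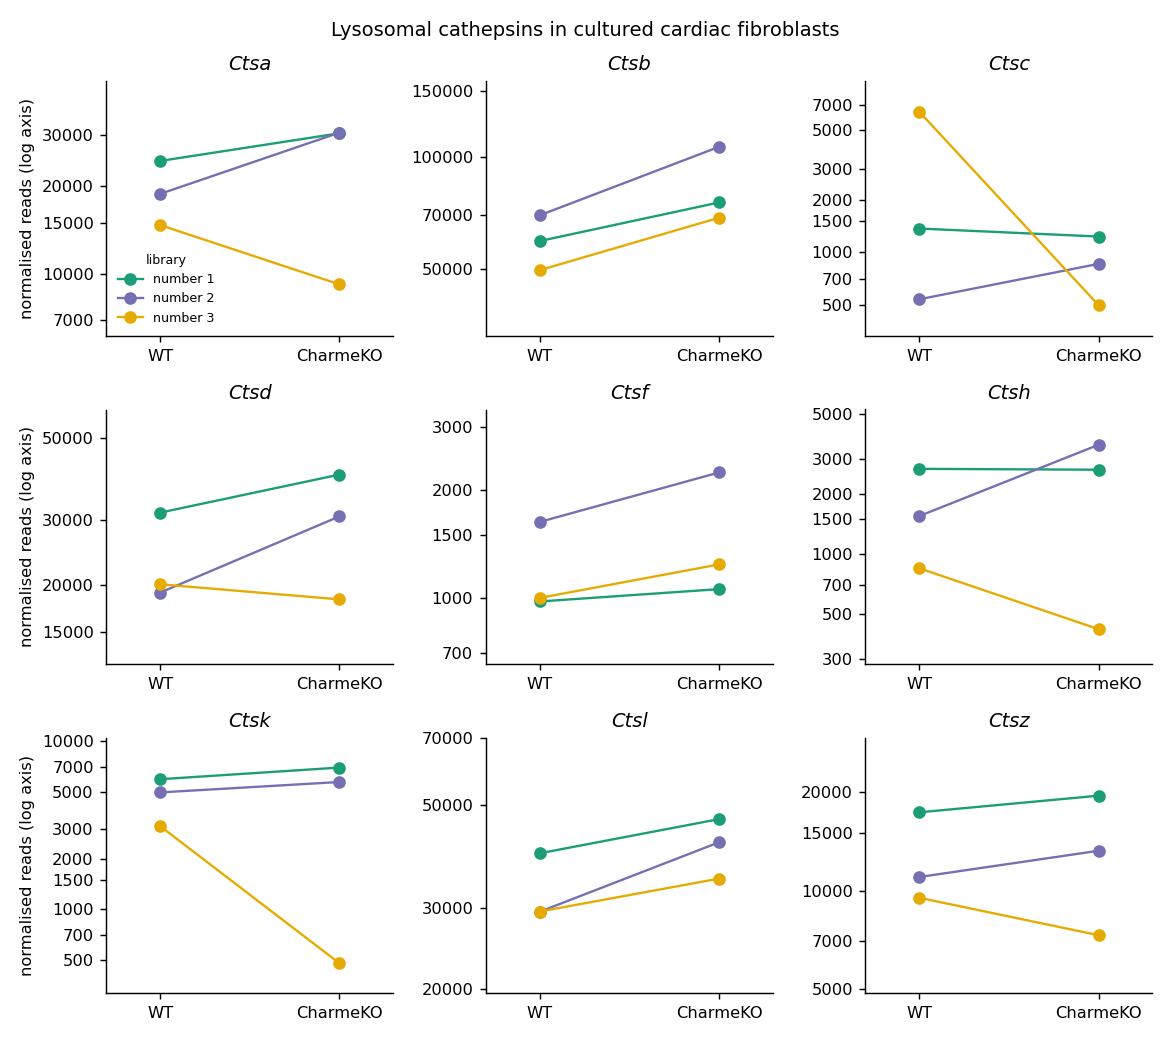
Normalised reads of the 9 cathepsins on log axes, with WT on the left and CharmeKO on the right of each panel and lines joining libraries of the same number. The lines of *Ctsb*, *Ctsf* and *Ctsl* all go up, and the line of number 3 goes down for the other 6 genes, from 3132 to 477 for *Ctsk*.

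*Ctsb* encodes cathepsin B, a cysteine protease that cuts both inside proteins and at their carboxyl end. It lies on chromosome 14, at 63122462 to 63145923 on the plus strand (GRCm38, GENCODE M21). *Ctsb* had 59536, 69777 and 49756 normalised reads in WT 1, 2 and 3 and 75528, 106401 and 68745 in CharmeKO 1, 2 and 3. CharmeKO 2 was the highest library and WT 3 the lowest, and the groups overlapped only because WT 2 lay above CharmeKO 3. The log2 fold change was 0.47 (SE 0.306, 95% interval -0.26 to 1.21), and it was 0.34, 0.61 and 0.47 in pairs 1, 2 and 3. With the replicate block in limma the SE was 0.159 and the interval 0.05 to 0.90, with an unadjusted p of 0.036 (5.37% of all genes were under 0.05 in this fit) and an adjusted p of 0.7997. DESeq2 with the block put *Ctsb* and *Ctsl* under an unadjusted p of 0.05, beside 5.59% of all genes, and gave them adjusted p-values of 0.0827 and 0.575. edgeR with the block gave unadjusted p-values of 0.023 for *Ctsb* and 0.0454 for *Ctsf*, both under 0.05, beside 4.82% of all genes. Over all alternatives the adjusted p of *Ctsb* ranged from 0.0827 to 1.00.

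*Ctsl*, the gene of the endopeptidase cathepsin L, was the steadiest of the 9. It lies on chromosome 13, at 64359337 to 64370890.0 on the minus strand, where the annotated gene *Gm49230* overlaps it on the same strand. It had 39362, 29393 and 29423 normalised reads in WT 1, 2 and 3 and 46692, 41591 and 34689.8 in CharmeKO 1, 2 and 3. Every CharmeKO library lay above WT 2 and WT 3, and only CharmeKO 3 lay below WT 1. CharmeKO exceeded WT by 0.33 on the log2 scale (SE 0.244, interval -0.26 to 0.91), with 0.25, 0.50 and 0.24 in pairs 1, 2 and 3. The highest library was 1.59 times the lowest.

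*Ctsf*, which encodes the cysteine protease cathepsin F, was scarce. It lies on chromosome 19, at 4855130.0 to 4860918 on the plus strand. Its values were 975, 1627 and 998 normalised reads in WT 1, 2 and 3 and 1056, 2238 and 1238 in CharmeKO 1, 2 and 3. In both genotypes number 2 was the highest library. Between genotypes the log2 difference was 0.29 (SE 0.348, interval -0.54 to 1.13), with 0.11, 0.46 and 0.31 in pairs 1, 2 and 3. Without CharmeKO 2 it was -0.028. The replicate number accounted for 85.8% of the variance of *Ctsf* over the 6 libraries, and genotype for 11.5%.

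The aspartic protease gene *Ctsd* lies on chromosome 7, at 142375911 to 142388038 on the minus strand, and shares part of its locus with the annotated gene *Gm49369* on the same strand. It had 31487, 19132 and 20148 normalised reads in WT 1, 2 and 3 and 39914, 30759 and 18339 in CharmeKO 1, 2 and 3. CharmeKO 1 was the highest library and CharmeKO 3 the lowest. The genotypes differed by 0.30 on the log2 scale (SE 0.359, interval -0.56 to 1.16), with 0.34 and 0.68 in pairs 1 and 2 and -0.14 in pair 3. It was 0.048 without CharmeKO 1, 0.16 without WT 2, 0.52 without WT 1 and 0.61 without CharmeKO 3.

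*Ctsa* encodes the serine carboxypeptidase that also shields neuraminidase and beta-galactosidase in the lysosome. It lies on chromosome 2, at 164832873 to 164841032 on the plus strand. Its values were 24393, 18824 and 14736 normalised reads in WT 1, 2 and 3, and 30319.8, 30479.8 and 9243 in CharmeKO 1, 2 and 3. The WT libraries lay between the high CharmeKO 1 and 2 and the low CharmeKO 3. The fitted log2 difference was 0.11 (SE 0.504, interval -1.10 to 1.32), and pairs 1, 2 and 3 gave 0.31, 0.70 and -0.67. Its sign turned without WT 3 (-0.068), CharmeKO 1 (-0.17) or CharmeKO 2 (-0.18).

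*Ctsz*, *Ctsh* and *Ctsc*, whose products, like that of *Ctsa*, mainly trim proteins from their ends, differed in pattern. *Ctsz*, the gene of the carboxypeptidase cathepsin X/Z (chromosome 2, 174427493 to 174439039, minus strand), had 17323, 10995 and 9501 normalised reads in WT 1, 2 and 3 and 19471, 13223 and 7305 in CharmeKO 1, 2 and 3. Number 1 was the highest in both genotypes and number 3 the lowest, and 91.5% of the variance went with the replicate number. The genotypes differed by 0.02 (SE 0.408) in *Ctsz*, a value that turned negative without WT 2 (-0.056), WT 3 (-0.16), CharmeKO 1 (-0.31) or CharmeKO 2 (-0.031). *Ctsh*, which encodes an aminopeptidase (chromosome 9, 90054152 to 90076089, plus strand), had 2669, 1550.3 and 850.3 normalised reads in WT 1, 2 and 3 and 2642, 3522 and 422 in CharmeKO 1, 2 and 3. Its libraries spanned 8.35-fold, and pairs 1, 2 and 3 gave log2 differences of -0.01, 1.18 and -1.01, so that the overall value of 0.05 (SE 0.847) averages opposite differences. It was -0.37 without WT 3, -0.32 without CharmeKO 1 and -0.53 without CharmeKO 2.

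*Ctsc* encodes dipeptidyl peptidase 1, which activates serine proteases of immune cell granules, and lies on chromosome 7 (88278085 to 88310888, plus strand). It had 1366, 536 and 6404 normalised reads in WT 1, 2 and 3 and 1229, 856 and 495 in CharmeKO 1, 2 and 3. WT 3 stood apart, 4.69 times above the next library, WT 1. The other 5 libraries lay between 495 and 1366, and WT 2 and CharmeKO 3 were close to each other at their low end. The difference between genotypes, -1.06 on the log2 scale (SE 0.879, interval -3.16 to 1.05), rested on WT 3, without which it was -0.089. Without WT 2 it was -1.88, with an unadjusted limma p of 0.0427 and an adjusted p of 0.9997. DESeq2 without the block gave *Ctsc* an unadjusted p of 0.0439 (1.79% of all genes were under 0.05 in that fit) and an adjusted p of 0.9999. In pair 3 *Ctsc* was 12.9 times higher in WT, in pair 2 it was 1.6 times higher in CharmeKO, and in pair 1 the log2 difference was -0.15.

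*Ctsk* encodes cathepsin K, the collagen-degrading protease best known from osteoclasts and also made by activated fibroblasts. It lies on chromosome 3, at 95499256 to 95509362 on the plus strand, and *Ctss* follows it on the same strand. *Ctsk* had 5955, 4970.1 and 3132 normalised reads in WT 1, 2 and 3 and 6989, 5733 and 477 in CharmeKO 1, 2 and 3. CharmeKO 3 stood apart from the other 5 libraries, with the next lowest, WT 3, at 6.56 times its value. In pairs 1 and 2 the CharmeKO library was slightly higher, by 0.23 and 0.21 on the log2 scale, and in pair 3 the difference was -2.71. Over all libraries the genotypes differed by -0.76 (SE 1.00, interval -3.17 to 1.65) and without CharmeKO 3 by 0.48, so the direction depended on this library. In edgeR and DESeq2, which compare means of reads, it was -0.09 and -0.10 with all libraries.

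**Figure D3:**
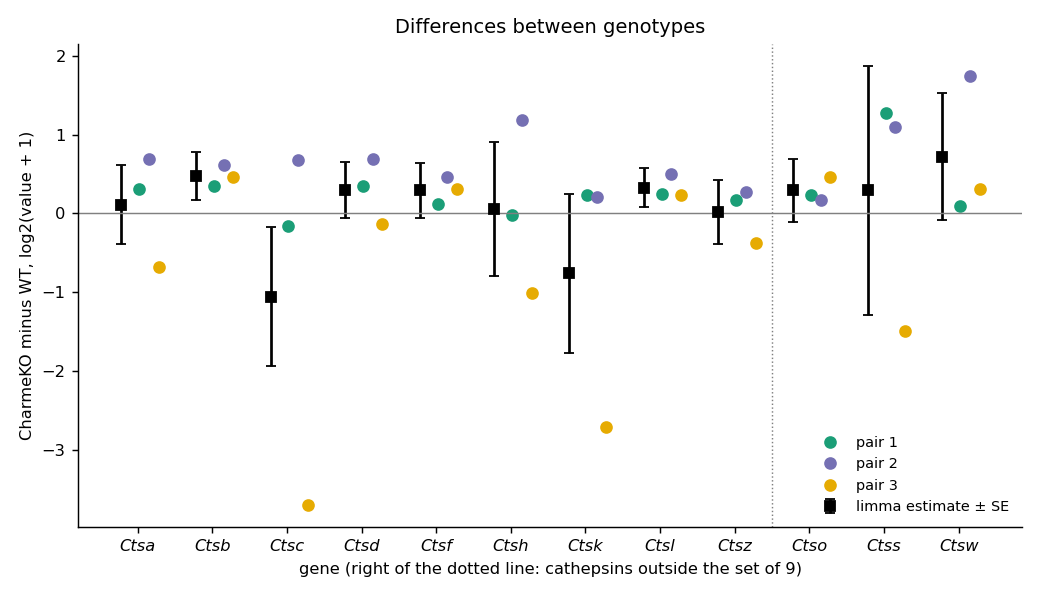
Difference between CharmeKO and WT on the log2(value + 1) scale for each cathepsin, as the limma estimate with its SE (squares) and as the differences within pairs 1 to 3 (circles). The 3 circles of *Ctsb*, *Ctsf* and *Ctsl* lie above 0, and the lowest circles are those of pair 3 for *Ctsc* (-3.69) and *Ctsk* (-2.71).

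Of 13 further cathepsin genes listed for comparison, the table held *Ctss*, *Ctso* and *Ctsw*. *Ctss* encodes cathepsin S, which antigen-presenting cells use to process the invariant chain of MHC class II. It had 776, 254 and 82.4 normalised reads in WT 1, 2 and 3 and 1876, 543 and 28.7 in CharmeKO 1, 2 and 3. Its libraries spanned 65.4-fold, a wider span than that of 98.5% of the genes tested, from CharmeKO 1 at the top to CharmeKO 3 at the bottom. Its overall log2 difference of 0.29 (SE 1.58) was made of 1.27, 1.09 and -1.49 in pairs 1, 2 and 3. *Ctso*, a broadly expressed cysteine cathepsin, had 593, 1044 and 445 normalised reads in WT 1, 2 and 3 and 697, 1178 and 616 in CharmeKO 1, 2 and 3. All 3 pairs were higher in CharmeKO for *Ctso*, by 0.29 on the log2 scale over all libraries (SE 0.394). *Ctsw*, a cathepsin of cytotoxic lymphocytes, was at 1.07 to 10.6 normalised reads, too few to compare.

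Macrophage markers moved with several of these genes. Of 23 markers listed, 22 were in the table, and their summed value was 13320, 7193 and 3446 normalised reads in WT 1, 2 and 3 and 26370.2, 15951 and 1474 in CharmeKO 1, 2 and 3. The highest library was CharmeKO 1 for 20 of the 22 and the lowest CharmeKO 3 for 18 of the 22. *Ptprc* (CD45, a surface protein of haematopoietic cells) and *Itgam* (an integrin of myeloid cells) were at 0 reads in CharmeKO 3, and *Fcgr1* was at 0 in WT 3. *Adgre1*, which encodes the macrophage marker F4/80, had 221, 100.4 and 36.3 normalised reads in WT 1, 2 and 3 and 515, 166 and 6.09 in CharmeKO 1, 2 and 3. *Cd53*, a tetraspanin gene of white blood cells, was the marker with the lowest p-value, and had 1636, 774 and 1027 in WT and 1657, 449 and 206 in CharmeKO. *Lyz2*, the lysozyme gene of myeloid cells, had 4919, 3181 and 1012 in WT and 12791, 10470.3 and 278 in CharmeKO. None of the 21 markers tested passed the adjusted limma threshold (0 genes), and their median log2 difference was 1.04, 0.72 and -1.49 in pairs 1, 2 and 3.

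*Ctss*, *Ctsz*, *Ctsa*, *Ctsh* and *Ctsk* had a minimum in CharmeKO 3 and the second lowest value in WT 3, as did the summed macrophage markers. The order was not particular to macrophage markers. It held for the summed endothelial markers (76.5 and 177 normalised reads). It also held for the sums of the other lysosomal hydrolases, the lysosomal membrane and pump genes, and the genes for sorting and activation of lysosomal enzymes. For the single marker *Cd53* the second lowest library was CharmeKO 2. *Ctsb*, *Ctsl* and *Ctsf* had their lowest value in a WT library: in CharmeKO 3, where the summed macrophage marker value was the lowest of the 6, *Ctsb* stood at 68745 normalised reads, above WT 1 and WT 3, and *Ctsl* at 34689.8, above WT 2 and WT 3. Not every macrophage marker was lowest there. *Csf1r*, the receptor gene of the macrophage growth factor, had 329.6 normalised reads in CharmeKO 3 and 293.6 in WT 2, and *Cd14*, a receptor gene for bacterial lipopolysaccharide, had 300.1 in CharmeKO 3 and 102 and 235 in WT 1 and WT 3. The part of macrophages in the value of any cathepsin was not tested. In bulk libraries such as these, fewer cells of a type and less RNA per cell cannot be told apart.

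**Figure D4:**
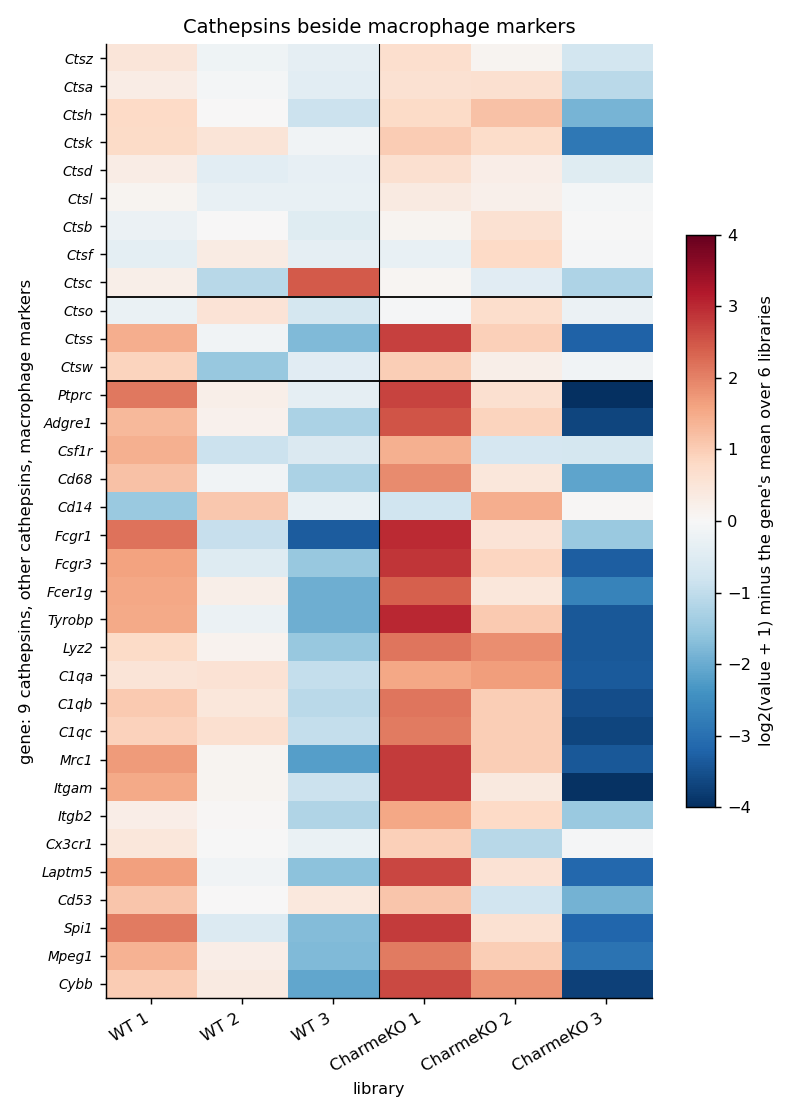
Heat map of the 9 cathepsins, the 3 further cathepsins and 22 macrophage markers in the 6 libraries, as log2(value + 1) minus the gene's own mean, with red above and blue below the mean (colours end at 4 either way). CharmeKO 1 is red and CharmeKO 3 blue for most markers and for *Ctss*, *Ctsh* and *Ctsk*, whereas *Ctsb*, *Ctsl* and *Ctsf* are pale in CharmeKO 3 and *Ctsc* is red in WT 3.

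Among themselves the cathepsins varied in different ways. Over the 6 libraries the log2 values of *Ctsa* and *Ctsh* were correlated with r = 0.985, those of *Ctsd* and *Ctsz* with 0.927, those of *Ctsa* and *Ctsk* with 0.915 and those of *Ctsb* and *Ctsf* with 0.83, whereas *Ctsb* and *Ctsc* gave -0.601. These values describe 6 libraries, which differ in depth and were treated as pairs by their number. The replicate number took a median of 72.4% of the variance of the cathepsins and genotype 11.5%, beside 73.8% and 5.91% over all genes tested. These shares are not corrected for the number of levels of each factor. Those of replicate number and genotype therefore cannot be compared directly, and each factor takes a share even without any effect. Genotype took 49.7% for *Ctsb* and 43.3% for *Ctsl*, and at most 18.5% for each of the other 7.

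For each cathepsin the 3 genes with the most similar profile were listed, by Pearson's r over the 6 libraries among all genes tested. With so few libraries high values are common, and 25 (*Ctsc*) to 288 (*Ctsz*) genes reached 0.95. *Ctsz* was closest to *Myo1g* (r = 0.999), *Spi1* (0.999) and *Sash3* (0.996), all known from blood cells, *Spi1* being the myeloid transcription factor PU.1. *Ctsa* was closest to *Gm2a* (0.998), a lysosomal lipid-binding protein gene, *Clec4n* (0.997), a lectin gene of myeloid cells, and *Lyz2* (0.994). *Ctsh* was closest to the MHC class I gene *H2-K1* (0.996), *Mapk4* (0.995) and *Agbl2* (0.992), and *Ctsk* to *Agmo* (0.995), *Cmbl* (0.994) and *Cpa6* (0.991).

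The closest genes to *Ctsb* were *Npdc1* (0.992), *Tmed1* (0.9897) and *Ubb* (0.9896), and those to *Ctsl* were *Apex1* (0.996), *Arf5* (0.994) and *Gm9484* (0.991). *Ctsd* was closest to *Pgap2* (0.993), *Ndufa11* (0.992) and *Prkag1* (0.9896). *Ctsf* was closest to *Tnip2* (0.997), *Gm13071* (0.996) and *Emx2os* (0.993), and *Ctsc* to *Sult4a1* (0.995), *Gm16062* (0.987) and *Stbd1* (0.983).

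The promoters were searched for CACGTG, the core of the E-box of the MiT/TFE factors, and for longer forms of it. These transcription factors drive many lysosomal genes. RefSeq promoters of 300 bases (GRCm38.p6, 250 before to 50 after the start site) were matched for *Ctsa*, *Ctsc*, *Ctsd*, *Ctsf*, *Ctsk*, *Ctsl* and *Ctsz*, with 8 promoters for these 7 genes. CACGTG, which reads the same on both strands, was in 4 of the 8, beside 7.15% of all 32851 promoters, and its longer form TCACGTGA was in 2 of the 8, beside 0.974%. The longest form of the E-box searched, with a G before and a C after TCACGTGA, was in 0 of the 8 and in 0.326% of all. The stretches that hold a match are shown because they set *Ctsa* and *Ctsd*, which carry the longer form, beside *Ctsf* and *Ctsl*, which carry the core alone. *Ctsa* holds TCACGTGA at 2 places, and *Ctsd* holds a core match 245 bases before the start site besides the longer one 99 bases before it. Capitals mark the match, and each TCACGTGA contains a CACGTG.
Ctsa, chr2:164833748-164833796, plus strand: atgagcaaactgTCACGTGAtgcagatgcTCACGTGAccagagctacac
Ctsd, chr7:142387907-142387938, minus strand: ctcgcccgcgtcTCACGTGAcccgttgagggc
Ctsd, chr7:142388055-142388077, minus strand: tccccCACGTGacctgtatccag
Ctsf, chr19:4855074-4855103, plus strand: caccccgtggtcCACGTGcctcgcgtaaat
Ctsl, chr13:64370739-64370768, minus strand: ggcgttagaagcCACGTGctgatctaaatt
A match is a description of these letters and not a bound site. The genes with a match include *Ctsl* and *Ctsf*, higher in CharmeKO in all 3 pairs, as well as *Ctsa* and *Ctsd*, which were lower in pair 3.

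All 4 genes of the MiT/TFE family were tested and 0 passed the threshold. *Tfeb*, the main regulator of lysosomal genes, had 680.5, 675 and 458 normalised reads in WT 1, 2 and 3 and 695, 634 and 839 in CharmeKO 1, 2 and 3. *Tfeb* differed by 0.27 on the log2 scale (SE 0.239). *Tfe3*, its close relative, had 2622, 2793 and 2784 in WT and 2932, 2792 and 3343 in CharmeKO, and differed by 0.14 (SE 0.145). Both were highest in CharmeKO 3, the library in which 6 cathepsins were lowest. *Mitf* had 259, 947 and 355 normalised reads in WT 1, 2 and 3 and 287, 1780.4 and 387 in CharmeKO 1, 2 and 3, with number 2 the highest in both genotypes. *Tfec*, a member known from macrophages, had 309, 85.4 and 358 in WT 1, 2 and 3 and 291, 119.9 and 0.87 in CharmeKO 1, 2 and 3, which is 1 read in CharmeKO 3.

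Of the genes listed for the sorting and activation of lysosomal enzymes, not of cathepsins alone, 17 were tested and 0 passed the threshold. In all 3 pairs 5 were higher and 1 lower in CharmeKO (29.4% and 5.88%), beside 16.4% and 14% of all genes tested. The median log2 fold change was 0.10. The gene lower in all pairs was *Igf2r*, which encodes the cation-independent mannose 6-phosphate receptor. *Igf2r* had 23255, 24688 and 25629 normalised reads in WT 1, 2 and 3 and 21195, 20789 and 14114 in CharmeKO 1, 2 and 3. Every CharmeKO library lay below every WT library, and the difference was -0.41 on the log2 scale (SE 0.227, interval -0.96 to 0.13). The groups did not overlap either for *Gga2*, an adaptor that loads these receptors into vesicles, with 3145, 3584 and 3202 in WT and 3869.8, 3897 and 3916 in CharmeKO. *Gga2* had a log2 difference of 0.24 (SE 0.138). Of all genes tested, 1.98% were non-overlapping and lower and 2.14% non-overlapping and higher in CharmeKO. The most abundant genes of this list were *Psap*, which encodes the saposin precursor, with 58975 to 71692 normalised reads in WT and 51946 to 82761 in CharmeKO, and *Scarb2*, a lysosomal membrane receptor, with 14219 to 29485 and 22403 to 31634.

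Cystatins, the inhibitors of cysteine cathepsins, were represented by 3 of the 11 genes listed, and 0 passed the threshold. *Cst3*, which encodes the secreted cystatin C, had 16776, 16236 and 9440.2 normalised reads in WT 1, 2 and 3 and 18147, 19140.5 and 11655 in CharmeKO 1, 2 and 3. Each CharmeKO library exceeded its WT partner, and the log2 difference was 0.22 (SE 0.315). The intracellular inhibitor *Cstb* had 2505 to 7809 in WT and 2256 to 8681 in CharmeKO. *Cst6* was high in number 1 of both genotypes (475 and 638) and at 34.1 to 103 elsewhere, with all 3 pairs higher in CharmeKO and a log2 difference of 0.89 (SE 1.21).

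Of 38 genes of other lysosomal hydrolases, 0 passed the threshold, and the median log2 fold change was 0.10. In all 3 pairs 7 were higher and 2 lower in CharmeKO (18.4% and 5.26%), beside 16.4% and 14% of all genes tested. *Gusb*, the beta-glucuronidase gene, was the hydrolase with the lowest p-value (unadjusted limma p 0.13). It had 5890.1, 5419 and 4594 normalised reads in WT 1, 2 and 3 and 6494, 6559 and 6093 in CharmeKO 1, 2 and 3, without overlap. Of the 38 hydrolases 1 was non-overlapping and higher in CharmeKO and 0 non-overlapping and lower, beside 2.14% and 1.98% of all genes tested. *Gusb* differed by 0.27 on the log2 scale (SE 0.159). *Fuca1*, which encodes the lysosomal fucosidase, had 2516 to 4539.9 in WT and 3022 to 5618 in CharmeKO, and differed by 0.49 (SE 0.328). *Gaa*, the abundant acid alpha-glucosidase gene, had a log2 difference of 0.24 (SE 0.446).

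Lysosomal membrane and proton pump genes numbered 30, of which 0 passed the threshold, and their median was 0.04. In all 3 pairs 4 were higher and 1 lower in CharmeKO (13.3% and 3.33%), beside 16.4% and 14% of all genes tested. *Lamp1*, the main membrane glycoprotein of lysosomes, had 74297, 47308 and 49119 normalised reads in WT 1, 2 and 3 and 81708, 61002 and 36502 in CharmeKO 1, 2 and 3. *Cd63*, a tetraspanin of lysosomes and endosomes, had 22277 to 34694 in WT and 19153 to 38248 in CharmeKO. The pump subunits *Atp6v0c* and *Atp6v1f* had log2 differences of 0.17 (SE 0.224) and 0.22 (SE 0.288). CharmeKO 3 held the lowest value for 18 of these 30 genes and for 18 of the 38 hydrolases, as it did for 6 of the 9 cathepsins.

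**Figure D5:**
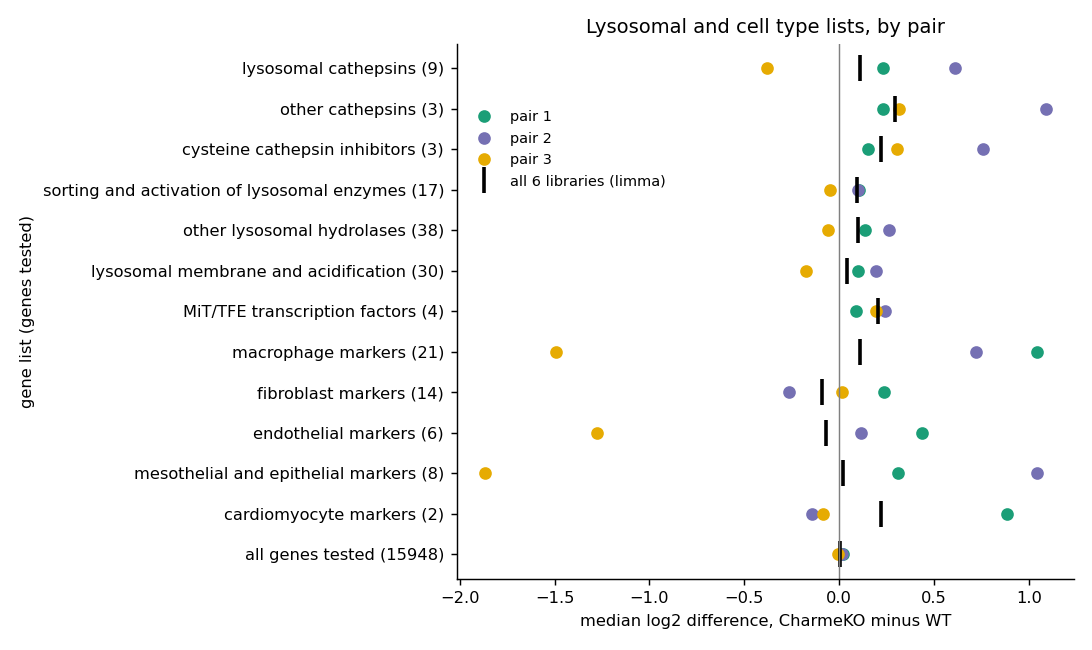
Median log2 difference between CharmeKO and WT for each gene list, within pairs 1 to 3 (circles) and over all 6 libraries (bars), with the number of genes tested in brackets. The cathepsin median is above 0 in pairs 1 and 2 (0.23 and 0.61) and below 0 in pair 3 (-0.38), the macrophage markers spread in the same order of sign (1.04, 0.72 and -1.49), and the median of all genes lies at about 0 in each pair.

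Markers of other cell types passed no threshold either (0 genes in each list). The median log2 fold change was -0.09 over the 14 fibroblast markers, -0.07 over 6 endothelial, 0.02 over 8 mesothelial and epithelial and 0.22 over 2 cardiomyocyte markers tested. The endothelial and the mesothelial and epithelial lists also had negative medians in pair 3 (-1.28 and -1.87), where 6 cathepsins were lower in CharmeKO. Of the endothelial markers 7 of 10 were in the table, summing to 177 to 310.2 normalised reads in WT and 76.5 to 396 in CharmeKO, with *Cdh5*, the endothelial cadherin gene, at 0 in WT 2 and CharmeKO 3. Of the mesothelial and epithelial markers 9 of 10 were present, summing to 2620.1 to 13924 in WT and 1035 to 15813 in CharmeKO, with *Muc16* at 0 in WT 2 and CharmeKO 2. Of the cardiomyocyte markers 3 of 10 were present, summing to 136 to 589 in WT and 158 to 794 in CharmeKO. Their part in the cathepsin values was not tested. *Col1a1*, the fibrillar collagen gene with the highest value among the fibroblast markers, had 394739, 818672 and 598199 normalised reads in WT 1, 2 and 3 and 570333, 770463 and 614566 in CharmeKO 1, 2 and 3. *Thy1*, a surface marker of fibroblasts, had 4602, 14705 and 29469.8 in WT 1, 2 and 3 and 4485, 10398 and 2658 in CharmeKO 1, 2 and 3.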

How the data were processed

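Poly(A) RNA of the 6 cultured CF libraries had been sequenced with a strand-specific kit. The authors used STAR to align the reads and to count them per gene on the reverse strand with an Ensembl annotation extended by *Charme*, then dropped rarely read genes and applied DESeq2; versions of both tools are not given in the sources used here. What they deposited is a read signal, in which reads are divided by 1 size factor for each library. The genome build is uncertain, since the sources name both a GRCm39 alignment and an annotation release made for GRCm38. Coordinates and exon lengths were therefore looked up by Ensembl ID in GENCODE M21 (GRCm38) and were not taken from the table. STAR counts only reads that overlap 1 gene, so reads shared with overlapping genes or pseudogenes are lost.

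Every column was divided by its smallest positive value, and 100% of 116676 values came out whole (tolerance 1e-06), which gave the reads. Values were compared as log2(value + 1) in limma (trend option, two-sided), fitting genotype alone to the 15948 genes that reached 10 reads in 2 or more libraries. Adjusted p-values follow Benjamini and Hochberg (threshold 0.05). Fold changes stand on the log2(value + 1) scale, which understates those of scarce genes. edgeR's quasi-likelihood test and the DESeq2 Wald test were run on the recovered reads. R 4.3.3, limma 3.58.1, edgeR 4.0.16, DESeq2 1.42.0, Python 3.11.15 and matplotlib 3.10.9 were used. The fits of genotype alone were tested on simulated reads that held no differences between replicate numbers. Fits with the replicate block were not tested in this way.

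The labels number the libraries without saying what separates them, while the study describes its cultures as independent isolations of primary cells. Same-numbered libraries were taken as pairs because their deviations from the group means were correlated (number 1, r = 0.762, number 2, r = 0.514, number 3, r = 0.217, each over 0.1). The other combinations gave -0.643 to 0.222, the highest being WT 2 with CharmeKO 3. Pairs were thus chosen from the same values that the pair counts and the block fits use. The members and the 12 gene lists were chosen with earlier results of these data known. Genes named were the cathepsins, for each other list the 2 of lowest p-value and the 2 of highest mean, the 3 genes most alike each cathepsin, and *Charme*. A gene that this rule names is not reported here. Of the cell type lists only some of these are described, and *Adgre1*, *Ptprc*, *Itgam*, *Csf1r*, *Cd14*, *Cdh5* and *Muc16* were named after their values had been seen. Limits from counts of 0 use 3 reads and cover counting error only, since reads without molecular identifiers are not independent molecules.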

Additional observations from a re-analysis of the deposited data

How the results depend on the processing

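None of the cathepsins passed the adjusted threshold (0 of 9) in limma or in any of 18 alternatives, among them edgeR, DESeq2, other scalings, pseudocounts of 0.5 and 5, other filters, the replicate block and each library left out. Over all genes, 8 passed it with DESeq2 and 64 with DESeq2 and the replicate block, and 0 in the other settings, for a cause that was not tested. Pairing by the replicate block changed no call of a cathepsin, and the median log2 fold change of the cathepsins was 0.11 in limma and 0.12 in edgeR, against 0.33 in edgeR without it. Without pair 3, an alternative chosen after seeing the data, 7 cathepsins were higher in the remaining pairs, and without pair 2, chosen likewise, 2 were lower (*Ctsc* and *Ctsh*).

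Directions depended on single libraries for 5 cathepsins. With 1 library left out, the log2 fold change ranged from -0.18 to 0.68 for *Ctsa*, from -0.028 to 0.54 for *Ctsf*, from -0.53 to 1.003 for *Ctsh*, from -1.45 to 0.48 for *Ctsk* and from -0.31 to 0.40 for *Ctsz*. *Ctsb* (0.29 to 0.60), *Ctsl* (0.23 to 0.47), *Ctsd* (0.048 to 0.61) and *Ctsc* (-1.88 to -0.089) kept their sign in these 6 fits. The median of the 9 ranged from -0.17 to 0.48, and the difference in their share of reads from 0.0559 to 0.183 percentage points. In the 12 settings with all libraries, no cathepsin changed direction, but sizes moved, from 0.11 to 0.28 for *Ctsa*, from 0.048 to 0.38 for *Ctsh*, from -1.69 to -0.90 for *Ctsc* and from -0.76 to -0.09 for *Ctsk*. With all libraries and no block, the 95% limma intervals of all 9 genes included 0.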
